A study of Mus musculus with 4 samples.

Results

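The 8 genes described here, Hmgcs1, Sqle, Insig1, Srebf2, Fdft1, Idi1, Lss and Cyp51, are cholesterol synthesis and sterol-response genes, and were found by matching their symbols to the symbol column of the count table, where they are 8 of 55487 rows. RNA of the mammary fat pad (MFP), the adipocyte-rich tissue that surrounds the mammary gland, was sequenced in 2 samples from aged (14 months) and 2 from young (8 weeks) female mice of the C57BL/6J strain as labelled, with no treatment, while the methods of the study name strain J among its animals and C57BL/6NCrl for the mice injected in the fat pad. Whole fat pads were minced and lysed with no step that isolated adipocytes, and a library holds RNA of every cell type of the fat pad, and for each gene fewer cells of a type and less RNA per cell cannot be told apart. Libraries were depleted of ribosomal RNA and made with a kit that keeps the strand. The samples, biological replicates by their labels, are named aged 1, aged 2, young 1 and young 2 below. All 8 genes passed the filter on low counts, as did 22485 genes in all.

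Animal cells build cholesterol from acetyl-CoA through mevalonate, isoprenoid diphosphates, squalene and lanosterol. The transcription factor SREBP-2, encoded by Srebf2, is made as a membrane-bound precursor that the escort protein SCAP carries from the endoplasmic reticulum to the Golgi when sterols are scarce. There it is cleaved, and the freed part enters the nucleus and switches on the genes of the pathway and of lipoprotein uptake. When sterols are plentiful, INSIG proteins hold SCAP in the endoplasmic reticulum. Adipocytes store a large pool of free cholesterol in and around their lipid droplets, and make less of it than hepatocytes do.

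The promoters of these genes are shown because sterol regulatory elements and their partner motifs are the letters through which SREBP-2 is known to act. RefSeq promoter windows on GRCm38.p6 were matched for 6 of the 8 genes, with no entry for Sqle and Fdft1, and the 250 bases before each RefSeq start were searched on both strands. The runs below lie upstream of the start of each gene in GENCODE M21, on the plus strand, at chr13:119690101-119690350 for Hmgcs1, chr15:82147019-82147180 for Srebf2, chr5:28071162-28071362 for Insig1 and chr10:76531355-76531587 for Lss. Capitals mark TCACNCCA, the core of a sterol regulatory element, and CCAAT, the box bound by NF-Y, written as ATTGG where it lies on the other strand. Hmgcs1 and Srebf2 are the genes with a TCACNCCA match, and Insig1 and Lss are shown as genes without one.
Hmgcs1: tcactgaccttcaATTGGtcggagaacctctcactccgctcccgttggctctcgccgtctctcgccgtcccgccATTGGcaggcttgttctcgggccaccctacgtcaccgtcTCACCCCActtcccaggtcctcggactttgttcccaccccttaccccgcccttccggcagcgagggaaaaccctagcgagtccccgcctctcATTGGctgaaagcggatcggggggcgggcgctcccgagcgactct
Srebf2: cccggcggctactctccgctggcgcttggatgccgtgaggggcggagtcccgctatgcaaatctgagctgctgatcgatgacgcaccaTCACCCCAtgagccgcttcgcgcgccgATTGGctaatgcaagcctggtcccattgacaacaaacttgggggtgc
Insig1: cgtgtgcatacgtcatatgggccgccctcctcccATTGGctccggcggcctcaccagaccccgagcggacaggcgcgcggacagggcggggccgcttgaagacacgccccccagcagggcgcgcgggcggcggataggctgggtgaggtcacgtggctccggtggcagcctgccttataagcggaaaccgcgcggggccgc
Lss: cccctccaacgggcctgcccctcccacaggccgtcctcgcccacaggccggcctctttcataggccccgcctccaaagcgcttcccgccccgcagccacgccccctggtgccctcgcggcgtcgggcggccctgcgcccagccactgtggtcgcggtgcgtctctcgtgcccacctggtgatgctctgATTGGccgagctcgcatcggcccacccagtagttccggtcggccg

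The letters TCACNCCA were found in 2 of 6 windows, starting 137 bases before the start of Hmgcs1 and 162 bases before that of Srebf2, against 3.67% of all 32851 promoters. The longer TCACNCCAC, which contains the shorter motif, was found for Hmgcs1, against 1.05% of all promoters. CCAAT was found in 6 of 6 windows, against 33.8% of all promoters and 34.3% of the 17153 promoters of genes tested. Of the 16 cholesterol synthesis enzymes with a window, 15 held CCAAT and 2, or 12.5%, held TCACNCCA. The GC box GGGCGG, a binding motif of SP1, was also found in 6 of 6 windows, against 32.7% of all promoters and 51.4% of those of genes tested. For Idi1 the CCAAT matches start at -45 and -14 and the GC box at -69 from the RefSeq start. These, and the CCAAT of Cyp51 at -29, lie inside the genes as annotated in GENCODE M21. The E box CACGTG was found once, 101 bases before the start of Insig1, against 6.02% of all promoters. These are matches of letters, and binding was not measured.

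**Figure D1:**
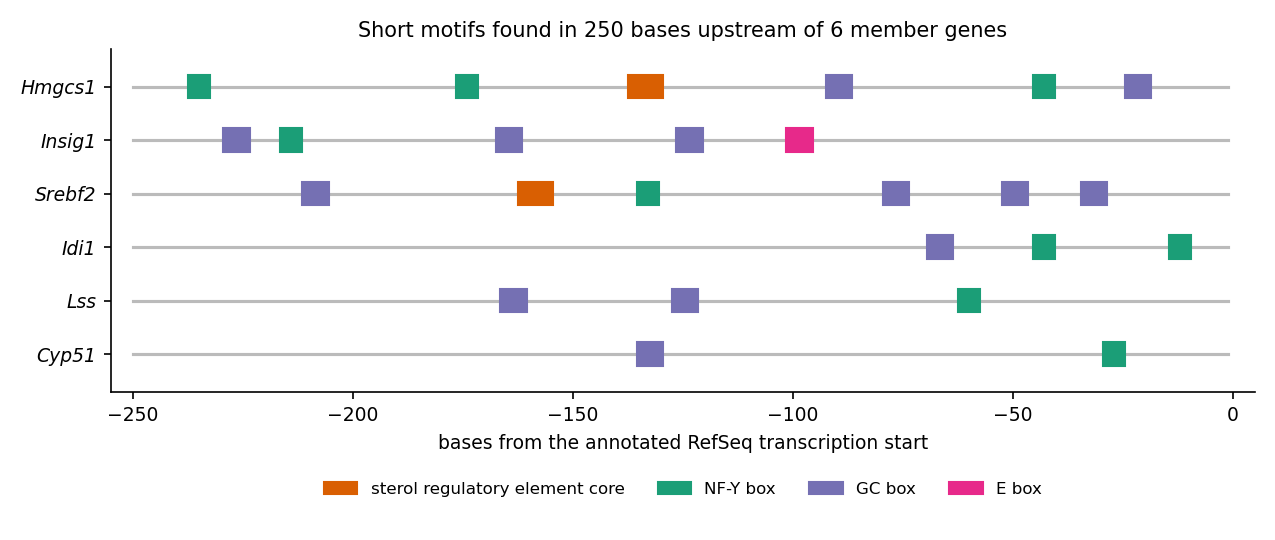
Motif matches on either strand in the 250 bases before the RefSeq start of the 6 genes with a window, with the distance from the start in bases on the x axis and 1 line a gene. The NF-Y box is the motif CCAAT and the GC box is GGGCGG, and each of the 6 lines carries at least 1 of both, while the sterol regulatory element core TCACNCCA is on the lines of Hmgcs1 and Srebf2.

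The libraries held 68803304 to 98402403 counts on genes, and CPM below is counts scaled to a common library size, the usual CPM, on totals scaled by the trimmed mean of M values (TMM). A gene with 3 counts would lie at 0.0337 to 0.0407 CPM, so none of the 8 genes, at 11.1 CPM or more in every library, is limited by depth, though such floors cover counting error only. The 8 adipocyte marker genes summed to 5536 to 8220 CPM in each library, and 7 of them were higher in both aged samples. Markers of skeletal muscle, which lies next to the fat pad, summed to 43928 and 70759 CPM in the aged and 11418 and 15898 CPM in the young samples, and 12 of 12 were higher in both aged samples. Of all genes tested, 23.3% were higher in both aged samples. Lymphocyte markers summed to 512 CPM in young 1 and to 2.55 to 49.8 CPM in the other samples, so young 1 stood apart. Dividing cell markers were also highest in young 1, at 92.8 CPM against 10.7 to 31.3 CPM. Mammary epithelium markers ranged from 1149 CPM in young 1 to 2764 CPM in young 2, with the milk protein gene Wap at 0. Of the 8 tested, 7 differed between the young samples by more than 1 on the log2 scale, against 20.7% of all genes. Macrophage markers ranged from 217.8 to 520 CPM, highest in young 1. Lyz2 alone was at 374 CPM there, against 45.9 to 119 CPM in the other samples. Adgre1, Mrc1 and Cd163 were instead lowest in young 1, and Cd68 and Csf1r were lowest in young 2. Endothelial markers ranged from 443 to 608 CPM, Schwann cell markers from 203 to 278 CPM, brown adipocyte markers from 57.8 to 81.6 CPM, and skin markers from 6.47 to 12.0 CPM with Flg and Awat1 at 0. The part of these cell types in the levels of the 8 genes was not tested.

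Age was compared gene by gene with the quasi-likelihood test of edgeR, and p-values were adjusted over all 22485 genes by Benjamini-Hochberg. None of the 8 genes was called at an adjusted p of 0.05, in a comparison that called 0% of all genes, the smallest adjusted p being 0.360. At an unadjusted p of 0.05 the test took 1 of the 8 genes, Fdft1, and 2371 genes in all, which is 10.5%. With upper quartile scaling or total counts only it took 0 of the 8. DESeq2 called 0 of the 8 genes, against 710 genes higher in aged MFP and 155 lower. These are 3.17% and 0.692% of the 22385 genes to which it gave an adjusted p. Both aged samples lay above both young samples for 2 of the 8 genes, Insig1 and Fdft1, against 23.3% of all genes, and below them for 0 of 8, against 22.8%. A share of 2 in 8 is near that background. The median log2 fold change of the 8 genes was 0.31, with 7 positive and 1 negative, and that of all genes tested was -0.037, while scaling by total counts only gave 0.11, with 4 positive and 4 negative, beside -0.22 for all genes. With 2 samples against 2, the smallest two-sided p of an exact permutation test is 0.333.

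**Figure D2:**
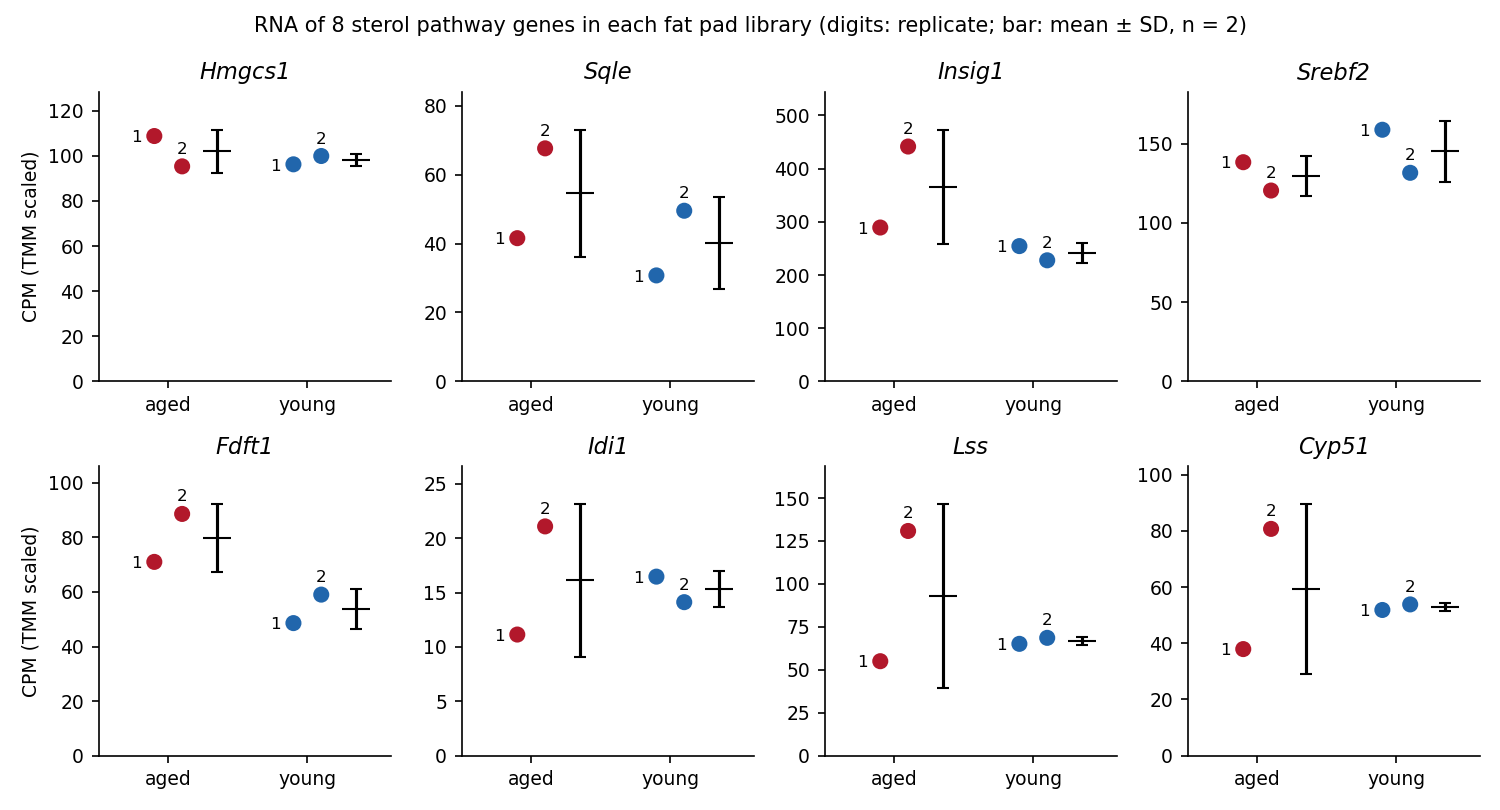
Levels of the 8 genes in each library, in CPM on linear axes that start at 0, with aged samples in red and young samples in blue, the replicate number beside each point, and the mean ± SD (n = 2) as bars. The aged points of Lss, Cyp51 and Idi1 lie farther apart than their young points, and the points of the 2 ages do not overlap for Insig1 and Fdft1.

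Of the 2 regulators, Srebf2 (ENSMUSG00000022463, chr15:82147181-82205379, plus strand, GRCm38) encodes SREBP-2 itself and hosts the microRNA gene Mir33. It was measured at 138 and 120.5 CPM in aged 1 and aged 2 and at 159 and 132 CPM in young 1 and young 2. The ages overlapped, with young 1 the highest sample. The means were 129 ± 12.6 and 145 ± 19.2 CPM (SD, n = 2 each) in the order aged and young, and the log2 fold change was -0.17 (SE 0.167, 95% interval -0.63 to 0.29; edgeR adjusted p = 0.689). Gm49502, which overlaps Srebf2 on the same strand, was at 6.24 and 4.84 CPM in the aged and 8.34 and 7.25 CPM in the young samples. The part of its reads in the Srebf2 counts was not tested.

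Insig1 (ENSMUSG00000045294, chr5:28071363-28078662, plus strand) encodes a protein that retains SCAP, and is itself a target of SREBP. Aged 1 and aged 2 held 289 and 441 CPM, and young 1 and young 2 held 254 and 228 CPM. The lower aged sample was above the higher young one, and aged 2 stood well above the other 3. The means of 365 ± 108 and 241 ± 18.9 CPM (SD, n = 2 each) gave a log2 fold change of 0.60 (SE 0.260, 95% interval -0.11 to 1.31; edgeR adjusted p = 0.503).

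The paralogue Insig2, which is not under the same sterol control, overlapped between the ages. It lay at 37.0 and 41.4 CPM in the aged and 34.0 and 38.0 CPM in the young samples, with a log2 fold change of 0.12 (SE 0.157; edgeR adjusted p = 0.749). The difference between the paralogues was not tested. Scap, which encodes the escort protein, had 79.3, 69.6, 74.0 and 84.2 CPM in aged 1, aged 2, young 1 and young 2, with overlap between the ages. The proteases that free SREBP-2 in the Golgi, Mbtps1 and Mbtps2, had log2 fold changes of -0.058 and 0.12. The ubiquitin ligases Rnf139 and Rnf145, of the endoplasmic reticulum, had log2 fold changes of 0.14 and -0.31. Of the 11 sterol sensing and SREBP processing genes, Srebf2 and Insig1 among them, 0 passed the test in either direction, and their median log2 fold change was 0.057.

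Among the 6 enzymes, Hmgcs1 (ENSMUSG00000093930, chr13:119690379-119708260, plus strand), the cytosolic HMG-CoA synthase, acts first. Its levels were 109 and 95.3 CPM in aged 1 and aged 2 and 96.2 and 99.9 CPM in young 1 and young 2. The 4 samples lay close together and the ages overlapped, and aged 1 rather than aged 2 was the highest. The means were 102 ± 9.50 and 98.0 ± 2.61 CPM (SD, n = 2 each), with a log2 fold change of 0.057 (SE 0.135, 95% interval -0.31 to 0.43; edgeR adjusted p = 0.870), the narrowest interval of the 8.

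Idi1 (ENSMUSG00000058258, chr13:8885501-8892451, plus strand), the isomerase that makes dimethylallyl diphosphate, was the lowest of the 8 genes. It was at 11.1 and 21.1 CPM in aged 1 and aged 2 and at 16.5 and 14.1 CPM in young 1 and young 2, so the aged samples lay on either side of the young ones. The means of 16.1 ± 7.03 and 15.3 ± 1.66 CPM (SD, n = 2 each) gave a log2 fold change of 0.0755 (SE 0.366, 95% interval -0.93 to 1.08; edgeR adjusted p = 0.941). Its paralogue Idi2 had 16 counts in young 1 and 0 in the other libraries. How reads shared by the paralogues were counted is not given in the sources used here.

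Fdft1 (ENSMUSG00000021273, chr14:63145150-63179578, minus strand), squalene synthase, commits the pathway to sterols. Aged 1 and aged 2 were at 71.0 and 88.6 CPM and young 1 and young 2 at 48.6 and 59.0 CPM, with both aged samples above both young samples. The means were 79.8 ± 12.4 and 53.8 ± 7.38 CPM (SD, n = 2 each), a log2 fold change of 0.57 (SE 0.189, 95% interval 0.050 to 1.09; unadjusted p = 0.0380 and adjusted p = 0.460 by edgeR). The adjusted p is the value over all genes, at which Fdft1 was not called. Ctsb, a lysosomal protease gene whose span overlaps that of Fdft1 on the other strand, was measured at 1000.0 and 1026 CPM in the aged and 737 and 609 CPM in the young samples. The strand setting of the counting is not given in the sources used here, and the part of Ctsb reads in the Fdft1 counts was not tested.

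Sqle (ENSMUSG00000022351, chr15:59315077-59331192, plus strand), squalene epoxidase, is a rate-limiting step after squalene. It was at 41.6 and 67.6 CPM in aged 1 and aged 2 and at 30.8 and 49.5 CPM in young 1 and young 2. The ages overlapped, and Sqle was the gene of the 8 whose young samples differed most, young 1 holding 0.621 times the level of young 2. The means were 54.6 ± 18.4 and 40.1 ± 13.3 CPM (SD, n = 2 each), with a log2 fold change of 0.44 (SE 0.363, 95% interval -0.55 to 1.44; edgeR adjusted p = 0.626).

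Lss (ENSMUSG00000033105, chr10:76531588-76557138, plus strand), lanosterol synthase, closes the first sterol ring system. Its levels were 55.0 and 131 CPM in aged 1 and aged 2 and 65.1 and 68.6 CPM in young 1 and young 2. Aged 1 was the lowest and aged 2 the highest of the 4, at 2.38 times the level of aged 1, while the young samples nearly coincided. The means of 92.9 ± 53.6 and 66.8 ± 2.47 CPM (SD, n = 2 each) gave a log2 fold change of 0.47 (SE 0.445, 95% interval -0.74 to 1.69; edgeR adjusted p = 0.667).

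Cyp51 (ENSMUSG00000001467, chr5:4081145-4104746, minus strand), the demethylase that acts on lanosterol, had the same order of samples at its extremes. It was at 37.9 and 80.7 CPM in aged 1 and aged 2 and at 51.9 and 53.8 CPM in young 1 and young 2. Aged 2 was 2.13 times aged 1, and both young samples lay between them. The means were 59.3 ± 30.3 and 52.8 ± 1.40 CPM (SD, n = 2 each), with a log2 fold change of 0.17 (SE 0.394, 95% interval -0.91 to 1.25; edgeR adjusted p = 0.870). Akap9, on the other strand, overlaps the span of Cyp51 and was at 203 to 257 CPM, highest in young 2. The genes that overlap Hmgcs1, Idi1 and Lss on the other strand, Gm48342, Gm48574 and 4930483K19Rik, had 0 to 9 counts in each library, and Sqle and Insig1 had no overlapping gene in GENCODE M21.

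**Figure D3:**
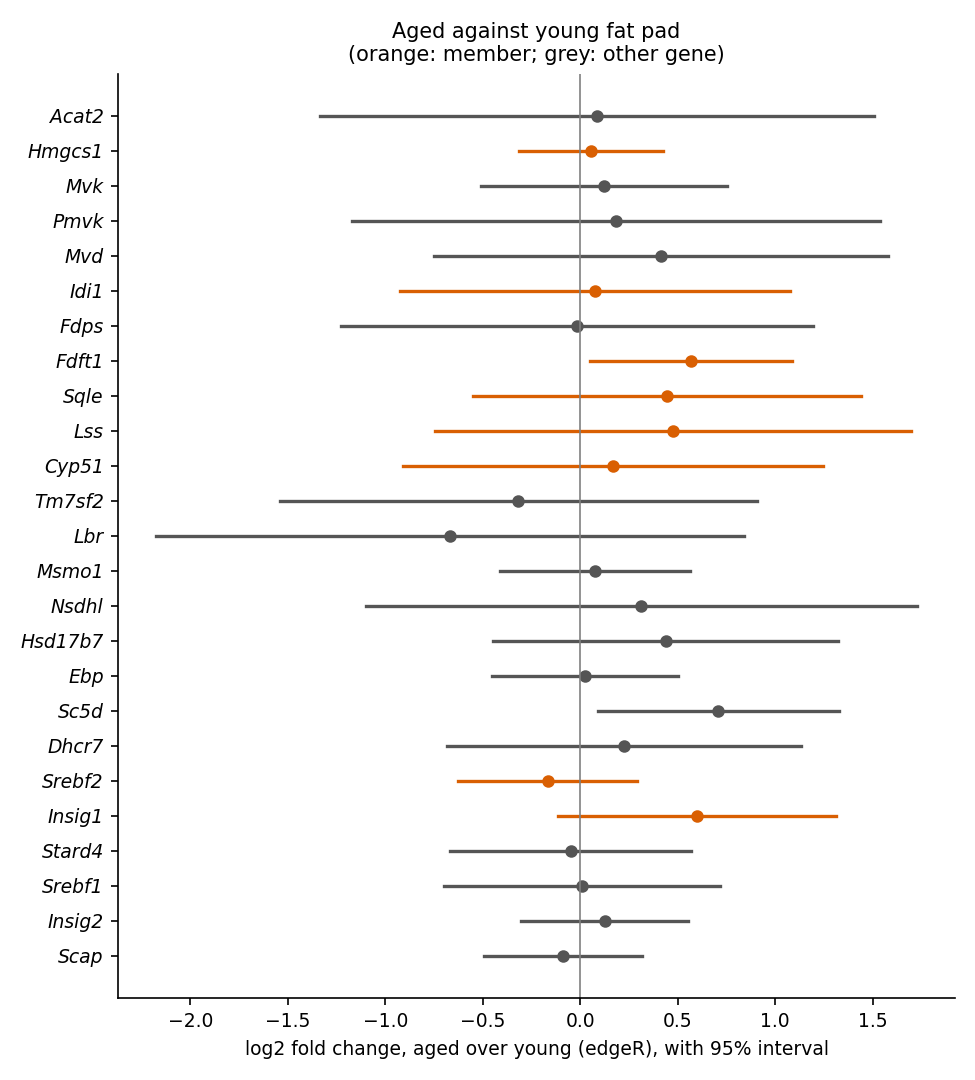
Log2 fold change of aged over young MFP from edgeR with its 95% interval, for 19 cholesterol synthesis enzymes in pathway order and for genes of regulation and sterol transport, with the 8 genes in orange and other genes in grey. The interval of Fdft1 runs from 0.050 to 1.09, those of the other 7 orange genes include 0, and no gene shown was called after adjustment.

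Levels of different genes are compared as CPM per kb of exon, since longer genes collect more reads. The length is that of all annotated exons of a gene merged, 10787 bases for Lss and 3093 to 7184 bases for the others. Which transcripts the samples held was not determined, so the order depends on this length. On this scale Insig1 was the most abundant, with a mean level of 98.0 over the 4 samples (73.6 to 143), and its range did not overlap that of the next gene. Hmgcs1 followed at a mean level of 21.8, Srebf2 at 19.1, Fdft1 at 15.8, Cyp51 at 12.7, Sqle at 8.54, Lss at 7.40 and Idi1 at 4.48 CPM per kb. Each of these ranges overlapped that of its neighbour, so neighbours in the order below Insig1 are not separated by the spread between samples. Genes farther apart in it can be on this scale. The range of Hmgcs1, 20.7 to 23.7 CPM per kb, lay above those of Cyp51 (8.59 to 18.3), Sqle, Lss and Idi1 (3.18 to 6.02). In CPM alone Lss, at 55.0 to 131, overlapped Hmgcs1, at 95.3 to 109, so their separation rests on the length used.

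For Lss, Cyp51, Idi1, Insig1 and Hmgcs1 the aged samples lay farther apart than the young samples. Log2 ratios of aged 2 to aged 1 and of young 1 to young 2 were of similar size for Sqle (0.70 and -0.69) and Fdft1 (0.32 and -0.28). For Srebf2 the young samples lay farther apart (-0.20 and 0.27). Aged 2 was above aged 1 for 6 of 8 genes, against 50.7% of all genes tested. The exceptions were Hmgcs1 at 0.876 and Srebf2 at 0.871 times the level of aged 1. The other ratios of aged 2 to aged 1 were 1.25 for Fdft1, 1.53 for Insig1, 1.63 for Sqle, 1.89 for Idi1, 2.13 for Cyp51 and 2.38 for Lss. Aged 2 was the highest of the 4 samples for those 6 genes, or 75%, against 21.6% of all genes tested. It exceeded aged 1 by more than 1 on the log2 scale for 2 of 8 genes, against 5.97% of all genes. The young samples differed by more than 1 on that scale, in either direction, for 0 of 8 genes, against 20.7% of all genes. The aged share counts 1 direction only, so the shares of the 2 ages are not to be compared. Their ratios, young 1 over young 2, ran from 0.621 for Sqle to 1.21 for Srebf2. With 1 sample on each side, the difference between aged 1 and aged 2 has no replicate check and no test.

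The 21 cholesterol synthesis enzymes, of which 6 are members, gave the same picture. All 21 passed the filter, 0 were called in either direction by edgeR or DESeq2, and their median log2 fold change with age was 0.12, with 17 positive and 4 negative, turning to -0.067 with scaling by total counts only, where the median of all genes was -0.22. Aged 2 was above aged 1 for 19 of 21, by a median log2 ratio of 0.77, and was the highest of the 4 samples for 17 of 21. Over all genes tested these shares were 50.7% and 21.6%. The median log2 ratio of young 1 to young 2 was -0.054. The aged pair lay above the young pair for 2 of them, Fdft1 and Sc5d, against 23.3% of all genes tested.

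In the first steps of the pathway, Acat2, the cytosolic acetoacetyl-CoA thiolase, had 2.80 times as much RNA in aged 2 as in aged 1, with 50.2 and 140.4 CPM in the aged and 89.3 and 90.5 CPM in the young samples. The mevalonate kinases and decarboxylase had ratios of aged 2 to aged 1 of 1.41 for Mvk, 2.64 for Pmvk and 2.17 for Mvd. Fdps, farnesyl diphosphate synthase, had 4.70 and 10.4 CPM in the aged and 7.65 and 7.64 CPM in the young samples.

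After lanosterol, the ratio of aged 2 to aged 1 was 2.29 for the sterol reductase Tm7sf2, 1.24 for the methyl oxidase Msmo1, 2.75 for the decarboxylating Nsdhl, 1.71 for the ketoreductase Hsd17b7 and 1.18 for the isomerase Ebp. Lbr, a nuclear envelope protein with sterol reductase activity, was instead high in young 1, at 96.0 CPM against 32.4 to 42.6 CPM in the other samples. Lymphocyte and dividing cell markers were also highest in young 1, and their part in the Lbr level was not tested. Sc5d, the sterol desaturase, had 211 and 303 CPM in the aged and 151 and 164 CPM in the young samples, with a log2 fold change of 0.71 (SE 0.226; unadjusted p = 0.0333 and adjusted p = 0.455 by edgeR). Dhcr7, a reductase of the last steps, had a ratio of 1.81.

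**Figure D4:**
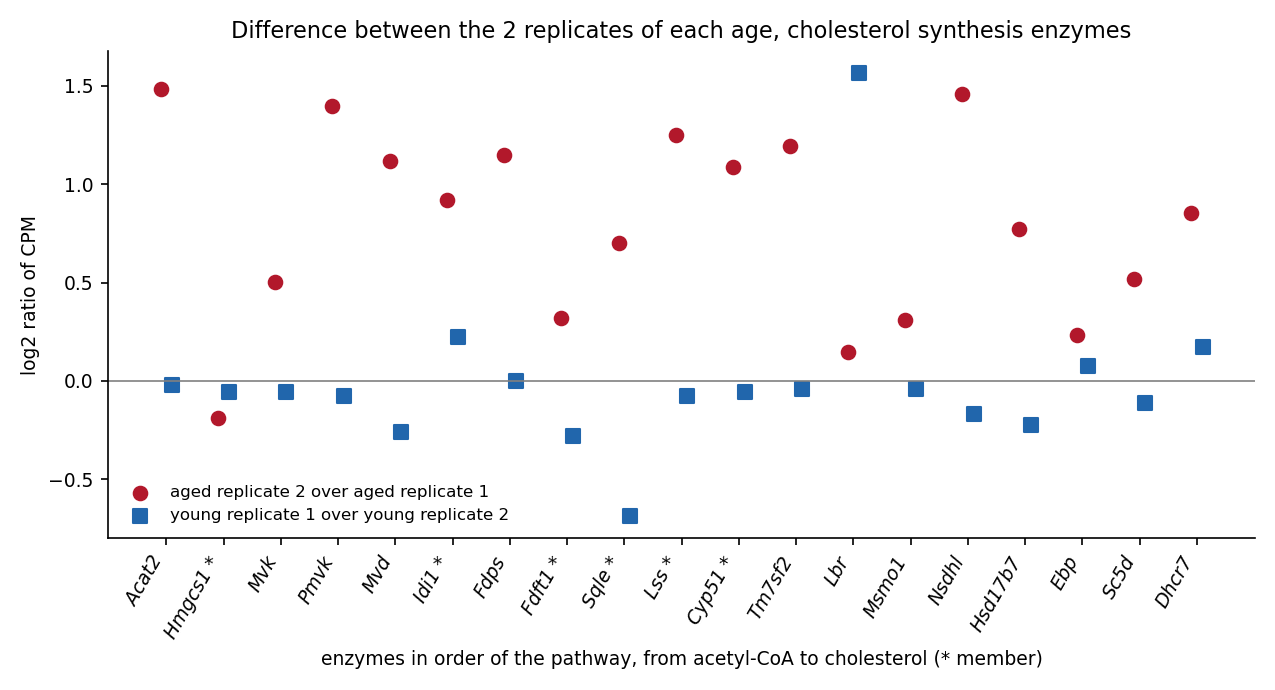
Log2 ratio of CPM between the 2 replicates of an age for 19 enzymes in pathway order, with red circles for aged 2 over aged 1 and blue squares for young 1 over young 2, and the 6 enzymes among the 8 genes starred. Of the red circles 18 of 19 lie above 0, up to 1.48 for Acat2, Hmgcs1 being below, and the blue square farthest from 0 is that of Lbr.

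Uptake and transport bring in cholesterol made elsewhere. The sterol carrier Stard4 and the SREBP-2 target Tmem97 had log2 fold changes of -0.049 and 0.017. The lysosomal Npc1, Npc2 and Lipa and the lipoprotein receptor Scarb1 had log2 fold changes of 0.21, 0.18, -0.047 and -0.013. Of the 8 uptake and transport genes tested 0 passed the test, their median log2 fold change was 0.0975, and the median log2 ratio of aged 2 to aged 1 was 0.23.

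Genes that answer sterol excess through the nuclear receptor LXR, with those of oxysterols and storage, had a median log2 ratio of aged 2 to aged 1 of -0.0015 over 10 genes. Their median log2 fold change with age was 0.070 and 0 were called. The largest log2 fold changes were -0.85 for the cholesterol exporter Abcg1, where young 1 was at 108 CPM and the other samples at 27.4 to 40.0 CPM, and 0.84 for the oxysterol hydroxylase Cyp7b1 (edgeR adjusted p = 0.624 and 0.500). The isoprenoid branch, which leaves the pathway before squalene, had a median log2 ratio of aged 2 to aged 1 of 0.062 over 9 genes and a median log2 fold change with age of 0.0245. Its largest log2 fold changes with age were -0.28 for Pdss1 and 0.24 for Fnta, and 0 of 9 were called.

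Fatty acid synthesis, driven by SREBP-1c and ChREBP, shared the difference between the aged samples. All 12 of its genes were higher in aged 2 than in aged 1, by a median log2 ratio of 1.19, and 11 of 12 were highest in aged 2. Of all genes tested, 50.7% and 21.6% were. Their summed level was 43318 CPM in aged 1 and 101628 CPM in aged 2, with 58061 and 62697 CPM in the young samples between them. Acly, which makes the cytosolic acetyl-CoA that both pathways use, was at 1845 and 7853 CPM in the aged and 3882 and 5033 CPM in the young samples. Against age, 0 of 12 were called and the median log2 fold change was 0.078, the largest being 1.49 for the elongase Elovl6 and 0.81 for the desaturase Scd2 (edgeR adjusted p = 0.533 for both). Srebf1, which encodes the SREBP-1 isoforms, was at 751 and 889 CPM in the aged and 685 and 947 CPM in the young samples.

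Adipocyte markers went the other way between the aged samples. Aged 2 was above aged 1 for 1 of 8 markers, Retn, with a median log2 ratio of -0.39, and their sums were 8220 CPM in aged 1 and 6476 CPM in aged 2. Muscle markers were higher in aged 2 for 10 of 12, and lymphocyte markers for 6 of 6, against 50.7% of all genes tested. So were dividing cell markers for 5 of 5 and macrophage markers for 6 of 6. Mammary epithelium markers were for 4 of 8, skin markers for 3 of 5 and brown adipocyte markers for 2 of 4. Endothelial markers were for 0 of 4 and Schwann cell markers for 0 of 5. The part of these differences in the spread of the cholesterol synthesis enzymes was not tested.

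**Figure D5:**
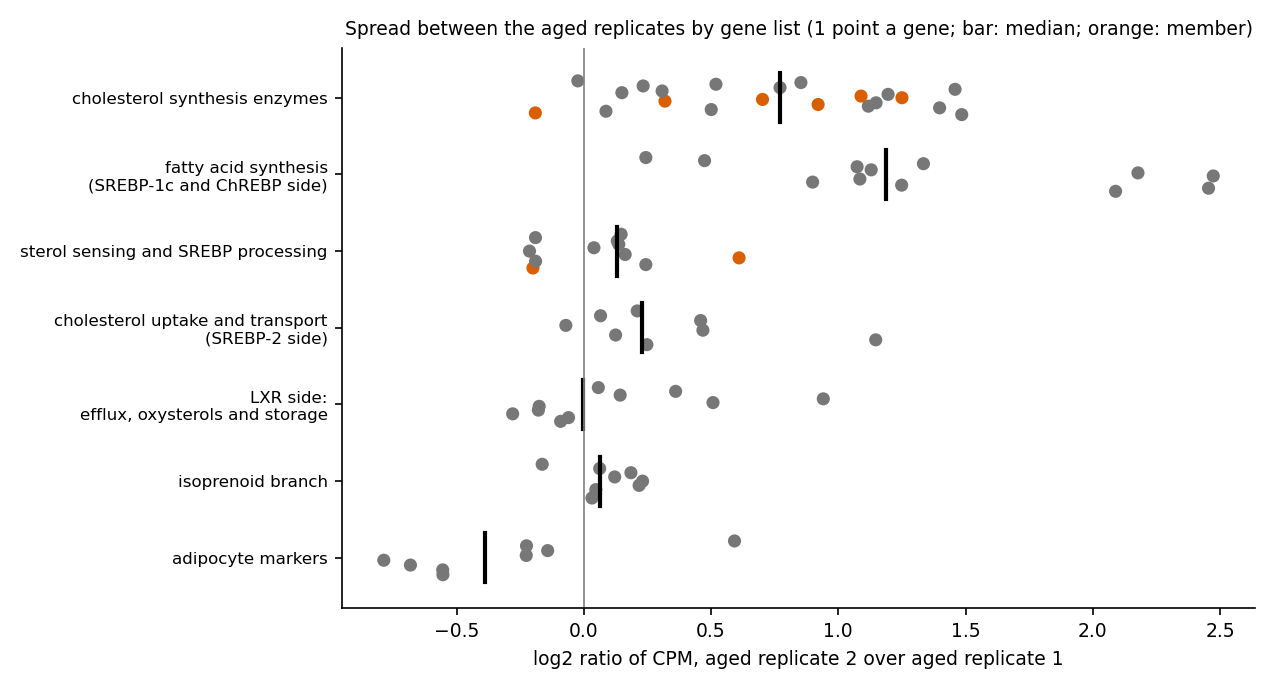
Log2 ratio of CPM of aged 2 over aged 1 for each gene of 7 lists, 1 point a gene, with the list median as a bar and the 8 genes in orange. The medians are 0.77 for cholesterol synthesis, 1.19 for fatty acid synthesis, 0.13 for sterol sensing, 0.23 for uptake, -0.0015 for the LXR side, 0.062 for the isoprenoid branch and -0.39 for adipocyte markers.

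The median log2 fold change of the 8 genes moved most when either aged sample was left out. It was 0.16 without young 1 and 0.36 without young 2. Without aged 2 their median log2 fold change was -0.0097, with 4 positive and 4 negative, and without aged 1 it was 0.65. Lss went from 0.47 to -0.28, Cyp51 from 0.17 to -0.48 and Idi1 from 0.0755 to -0.46 when aged 2 was left out. Fdft1 kept a positive log2 fold change without each sample in turn, from 0.40 to 0.73, and so did Insig1, from 0.26 to 0.86, and Sqle, from 0.051 to 0.84. Srebf2 stayed negative, from -0.28 to -0.026.

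The mean profile of the 8 genes, as log2 CPM centred on each gene, was -0.16 in aged 1, 0.40 in aged 2, -0.15 in young 1 and -0.087 in young 2. Of 10613 other genes with a mean of at least 10 CPM, the 5 with the smallest Euclidean distance from it over the 4 samples were Nat8l, Slc38a10, Tmem126a, Car5b and Coq7, at distances of 0.0388 to 0.0769 on the log2 scale. Nat8l, which makes N-acetylaspartate, was at 224 and 338 CPM in the aged and 232 and 235 CPM in the young samples. The distance of the 8 genes themselves from their mean profile ran from 0.371 for Insig1 to 0.711 for Srebf2, so the mean describes none of them closely. The nearest cholesterol synthesis enzyme outside the 8 was Mvk, at rank 51.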

How the data were processed

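Total RNA of 4 MFP samples, 2 per age, was sequenced after ribosomal RNA depletion. For 55487 genes the authors deposited unnormalized read counts of each sample, with no pooling. The submitters' processing notes name featureCounts, R 3.6.1 and the builds hg38 and GRCm38. The aligner and the strand setting are not given in the sources used here, and the study's methods name DESeq2. Replicate numbers come from the sample titles, which call the samples biological replicates without naming animals, so p-values measure the spread between these libraries. The chi-square per degree of freedom between the counts of 2 replicates was 296 for aged and 265 for young, so none was a repeat deposit.

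With R 4.3.3, edgeR 4.0.16 and limma 3.58.1, genes were kept by filterByExpr, scaled by TMM, fitted with glmQLFit and tested with glmQLFTest, with age as the only term and Benjamini-Hochberg adjustment over all genes tested at 0.05. A standard error is the size of the log2 fold change divided by the square root of F. Ratios of single genes use CPM, and list medians of ratios use log2 CPM with a prior count of 2. Of the 114 symbols on more than 1 row, the row with most counts was taken. Coordinates, overlaps and exon lengths come from GENCODE M21. The 8 genes and all lists were chosen with earlier results of these data known. Named by rule were the 8 genes, the enzymes, sensing and uptake genes, except some that are not reported here, the 2 largest changes of each other pathway list, and the 5 nearest profiles. Acly, Retn, Wap, Flg, Awat1, Idi2 and the overlapping genes were added after their values were seen. Alternatives were scaling by RLE, by the upper quartile or by total counts alone, no filter, at least 10 counts in every sample, a replicate block, DESeq2 1.42.0 and leaving out each sample. The code was tested on simulated data.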

Additional observations from a re-analysis of the deposited data

How the results depend on the processing

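No member gene was called at an adjusted p of 0.05 under any of the 13 settings run. DESeq2 called 865 genes of the series where edgeR called 0. Leaving out a sample leaves its age with 1 sample, which is assumed to vary like the other age, and moved the median log2 fold change of the 8 genes between -0.0097 (without aged 2) and 0.65 (without aged 1), and that of the 21 enzymes between -0.26 and 0.58. With 1 sample left out, the log2 fold change of Hmgcs1 ran from -0.053 (without aged 1) to 0.15, and that of Idi1 from -0.46 (without aged 2) to 0.45, with -0.020 without young 2. Lss ran from -0.28 (without aged 2) to 0.96 and Cyp51 from -0.48 (without aged 2) to 0.60. Scaling by total counts only moved the median of all genes from -0.037 to -0.22 and turned Hmgcs1 (-0.12), Idi1 (-0.12) and Cyp51 (-0.032), with 4 of 8 genes positive, and the median of the 8 less that of all genes was 0.32 against 0.34. The cause was not tested. Of 96 single-gene values under the alternatives, 8 changed sign and 88 kept sign and side of the threshold. Same-numbered samples deviated in opposite directions, with a correlation of -0.48 over 22485 genes. As there are 2 samples per age, this cannot tell whether the numbers mark pairs. The replicate block gave 0 genes called, 0 of the 8 among them, with a median log2 fold change of the 8 of 0.21. With the numbers crossed, chosen after seeing the data, the number of calls was again 0, and an unadjusted p under 0.05 was reached by 2494 genes, against 1346 with the block and 2371 without it. Depth did not limit the 8 genes, and 2 samples per age limit every interval.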
